A study of Mus musculus with 2 samples.

Results

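Binding of Lef1 was examined at 10 genes of the Notch pathway, namely the Deltex genes Dtx1, Dtx2, Dtx3, Dtx4 and Dtx3l, the receptor genes Notch1, Notch2 and Notch3, and Rbpj and Hes1. Every peak of the deposited Lef1 list that lay inside or within 50 kb of one of these genes was taken. That rule gave 5 of the 2052 peaks, and they lay at 4 of the 10 genes. Because the peaks themselves chose these regions, their positions and scores are given as a description, without a test.

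Lef1 binds DNA as a member of the TCF/LEF family of transcription factors. Its sites were mapped by chromatin immunoprecipitation and sequencing (ChIP-seq) with the anti-Lef1 antibody C18A7. The cells studied were conventional CD4+ T cells sorted from spleens (wild type, strain C57BL/6, aged 8 to 10 weeks) as TCRb+, CD4+, CD25- and, per the series' design text, GFP-. The control was chromatin precipitated with the same antibody from Lef1-deficient CD4+ T cells (TCRb+, CD4+) of CD4-Cre+ Lef1 fl/fl mice, in which Cre is driven by regulatory sequence of Cd4 and acts in developing T cells. The control was sorted as all CD4 T cells, so CD25-positive cells were not gated out by its stated markers, and both libraries carry the tissue label naive CD4 T cells. Each group had 1 library, and no difference between samples could be tested. How many mice each library came from is not given in the sources used here.

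A peak is a stretch in which the wild-type library had more reads than the control, and its score is the −log10 p that the authors deposited for it. Scores ran from 4.01 to 38.17 with a median of 4.40, and widths from 55 to 1141 bp with a median of 79 bp. Read counts per library were not used here, so the depth is unknown. Where no peak is listed, binding may have missed the threshold or been removed by a later filter. The read counts were also needed for a check of the control. Without them, the loss of Lef1 from the control could not be checked. A peak list holds no expression, so the cell type could not be checked either. Of 6 CD4 T cell marker genes with an entry, Cd28 (4.08) and Lck (4.67) had a peak, and of 3 myeloid markers none did.

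Notch receptors sit in the cell membrane and are cut when a ligand on a neighbouring cell binds them. The freed intracellular part enters the nucleus and joins the DNA-binding protein Rbpj and coactivators of the Mastermind family, which turns on targets such as Hes1. In the thymus this signal commits progenitors to the T cell lineage. Deltex proteins are RING-type ubiquitin ligases that were named for their part in Notch signalling, and Dtx1 is known in mature T cells for its link to anergy, a state of unresponsiveness.

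The DNA under a peak could be read only where the peak reached a RefSeq promoter window, which runs from 250 bases before a start site to 50 after it. Of the 10 genes, 7 had such windows (8 in all), and a peak reached that of Notch2. Over all windows, a peak overlapped 0.95% of 32851. In the 68 further Notch pathway genes described below, 54 had windows, and peaks reached those of Pofut1 and Bcl11b. The 250 bases before the start site of Notch2 and of Bcl11b are shown because they hold DNA under a peak. Notch2 is a receptor gene, and Bcl11b acts after Notch in T cell commitment. The bases are written 5′ to 3′ along the gene, from RefSeq, build GRCm38.p6, and capitals mark those inside the Lef1 peak.
Notch2 (chr3:98013288-98013537, plus strand): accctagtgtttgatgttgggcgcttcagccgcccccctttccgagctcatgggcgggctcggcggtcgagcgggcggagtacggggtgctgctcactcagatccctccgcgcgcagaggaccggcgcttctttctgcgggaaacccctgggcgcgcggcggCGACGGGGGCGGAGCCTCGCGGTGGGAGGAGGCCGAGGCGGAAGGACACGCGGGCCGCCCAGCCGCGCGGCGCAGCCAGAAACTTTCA
Bcl11b (chr12:108003415-108003664, minus strand): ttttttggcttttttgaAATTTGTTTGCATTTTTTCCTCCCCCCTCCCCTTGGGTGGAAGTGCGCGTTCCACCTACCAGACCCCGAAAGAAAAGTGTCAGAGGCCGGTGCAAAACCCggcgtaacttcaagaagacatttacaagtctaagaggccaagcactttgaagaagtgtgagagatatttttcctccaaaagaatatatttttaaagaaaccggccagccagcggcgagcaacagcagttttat
In Notch2 the capitals are the 88 bases of the 161 bp peak that precede the start site. In Bcl11b they are the whole peak of 100 bp.

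The peak at Dtx1 stood far above the others of the set. It had a score of 18.29 and a width of 438 bp (chr5:120685747-120686184, mm10). By score it ranked 6 of 2052, and by width 19. Among peaks on autosomes it ranked 3. Of the 1076 peaks that touched a protein-coding gene it had the highest score.

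This peak lay inside Dtx1 (chr5:120680203-120711867), which is read from the minus strand. It was 25.5 to 25.9 kb downstream of the RefSeq start site and 5.54 kb from the low-coordinate end of the gene, its 3′ end. Exon and intron boundaries were not used here. The neighbour Rasal1, which encodes a Ras GTPase-activating protein, lay 6.15 kb away, and Oas2, an antiviral oligoadenylate synthetase gene, 44.1 kb away. Dtx1 was the only gene whose body held it.

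A further peak lay on the other side of Dtx1, from -4.13 to -4.06 kb relative to the start site (chr5:120715728-120715794). Its score of 4.14 ranked 1866 and its width was 67 bp. The 2 peaks of Dtx1 thus lay at either end of the score range, the first among the highest of the list and the second close to its lowest score of 4.01. Dtx1 was the nearest protein-coding gene to both. Of the 10 genes it alone had more than 1 peak, as did 2.61% of all protein-coding genes.

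**Figure D1:**
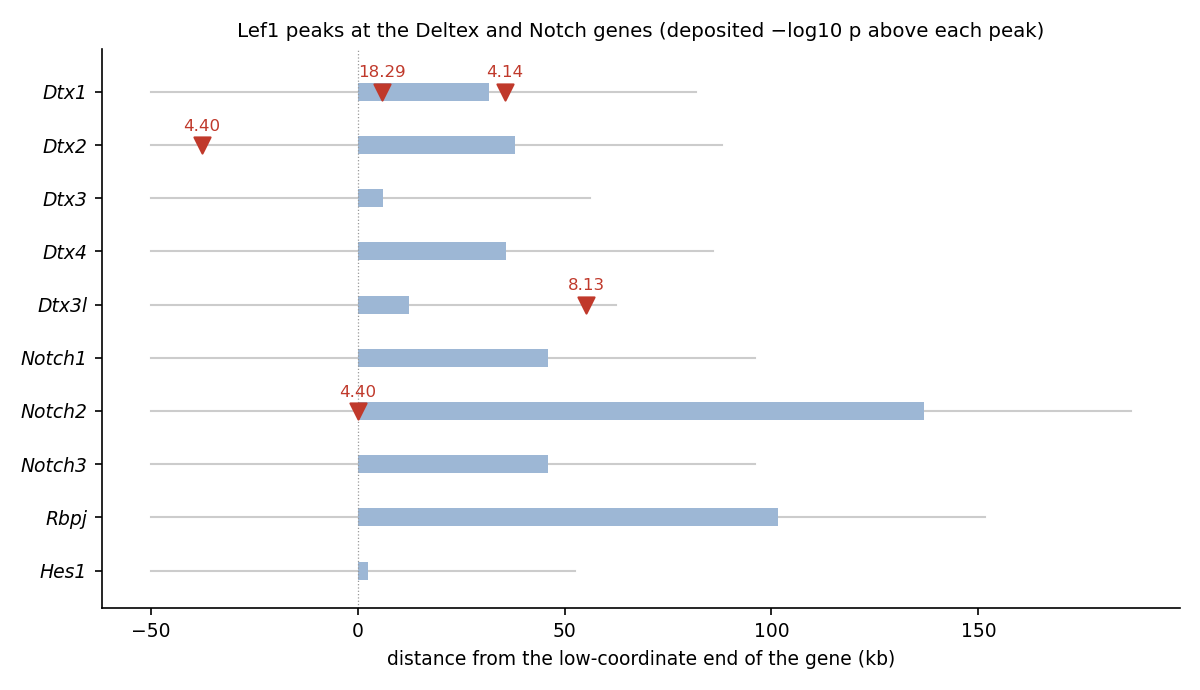
Lef1 peaks (red triangles, with the deposited −log10 p above each) at the 10 genes, with gene bodies as blue bars and the 50 kb on either side as grey lines. The horizontal axis is the distance in kb from the low-coordinate end of each gene. The Dtx1 peak of 18.29 lies inside the gene and that of Notch2 (4.40) at its start, while those of Dtx2 (4.40) and Dtx3l (8.13) lie well outside.

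Ranked by the highest score of a peak inside or within 50 kb, Dtx1 shared place 4 of 3384 genes with Rasal1 and Oas2, through the same peak. The genes just above were the predicted gene LOC665918 on chromosome Y (29.07) and Dpy19l2 and Dpy19l1, which share a peak of 20.87 on chromosome 9. Just below were Ptpre, which encodes a receptor-type tyrosine phosphatase, and Clrn3, with a shared peak of 16.79, and then Satb1, a chromatin organiser of T cells (16.36). The peak of Ptpre lay inside that gene and that of Satb1 46.0 kb away. Dtx3l held place 185, and Notch2 and Dtx2 shared place 1279.

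The other 2 Deltex genes with a peak were not the nearest gene to it. Dtx3l encodes a Deltex protein that works in a pair with Parp9 in the response to DNA damage and interferon. A peak of score 8.13 and 98 bp lay 42.7 kb from it (chr16:35981721-35981818). It ranked 88 of the list. On the upstream side of Dtx3l, the same peak was 9.1 kb from Parp9 and 1.47 kb from Kpna1, a nuclear import receptor gene and the nearest. Parp14, another interferon-linked gene of this cluster, had no peak within 50 kb and lay 110.2 kb from this one.

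Dtx2 had a peak of score 4.40 and 81 bp upstream, at -37.8 to -37.7 kb from its start site (chr5:135957028-135957108). The scavenger receptor gene Ssc4d lay 3.11 kb from that peak, Ywhag, which encodes a 14-3-3 protein, 22.4 kb, and the egg coat gene Zp3 23.0 kb. All 3 were nearer than Dtx2.

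Dtx3 and Dtx4 had no peak in the window. The nearest to Dtx3 was 739.4 kb away with a score of 4.40, and the nearest to Dtx4 1.11 Mb away with a score of 6.91. The Deltex genes thus ran from a peak inside the gene to none within 1 Mb.

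**Figure D2:**
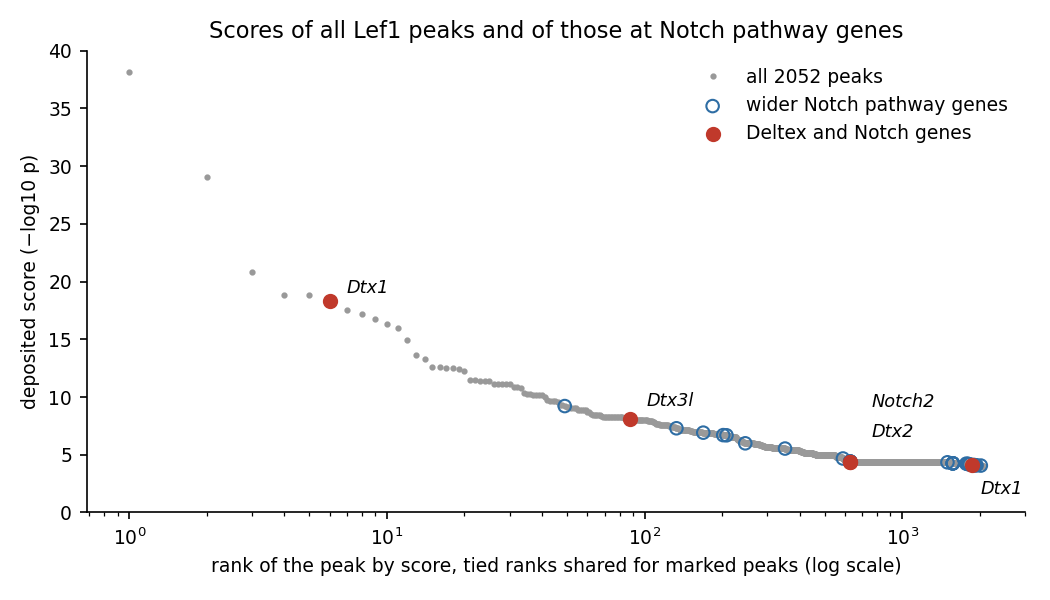
Deposited score (−log10 p, vertical axis) of each of the 2052 Lef1 peaks against its rank (horizontal axis, log scale), with peaks at the 10 genes filled red and those at the wider pathway list as blue circles. The main Dtx1 peak (18.29, rank 6) and that of Dtx3l (8.13, rank 88) lie on the steep part of the curve, and those of Notch2 and Dtx2 at the start of the long step at 4.40.

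Of the Notch receptor genes, Notch2 had a peak, and it covered the start of the gene. The peak of 161 bp (chr3:98013450-98013610) ran from -88 to 72 bp relative to the start site, at 98013538 on the plus strand. By width it ranked 344, and its score of 4.40 was shared by 828 peaks, 40.4% of the list, at rank 629. The gene runs over 136.8 kb to 98150367, and no other peak lay inside it or within 50 kb. The next protein-coding gene in reach of the peak was the predicted gene Gm5544, 46.4 kb away.

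That shared score is a step of a regular series. A Poisson mean of 0.364 was fitted so that the −log10 probability of a count above 4 equals this score. With that mean, the steps for exceeding 5 to 10 also occur in the list, within 2e-05. The peaks of Notch2 and Dtx2 lay on the lowest step, and the scores of Dtx1 and Dtx3l on none of the 7. The highest step tried, 12.57, was below the 18.29 of the main Dtx1 peak.

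Notch1, the receptor that acts in T cell commitment, had no peak inside or within 50 kb. The nearest lay 119.2 kb from it (chr2:26622975-26623140, score 5.68), the smallest distance among the genes without a peak. With Dtx3l at 42.7 kb as the farthest gene inside the window, no member lay between these distances. Notch3 was 998.7 kb from its nearest peak, of score 4.40.

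Neither Rbpj nor Hes1 had a peak. The nearest to Rbpj, which binds DNA for all Notch receptors, was 352.7 kb away (4.40). The nearest to Hes1, which encodes a repressor of the basic helix-loop-helix family, was 1.21 Mb away (4.25). This was the largest distance in the set.

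Read against all genes, 4 of 10 stood beside 15.5% of the 21887 protein-coding genes with a peak inside or within 50 kb (95% exact Clopper-Pearson interval 15.0 to 15.9%). That interval covers counting error only. It treats genes as independent, although neighbouring genes can share a peak. For a peak that touches the body, Dtx1 and Notch2 stood beside 4.51%. Dtx1 and Notch2 were also the genes nearest to a peak, beside 6.67% of all genes, and Dtx1 and Dtx3l those with a score of at least 8, beside 0.932%. These peaks define the set, so nothing is read from these counts. The median distance to the nearest peak was 235.9 kb in the set and 317.2 kb over all genes. For Hes1 83.8% of all genes had a nearer peak, for Dtx4 82.3%, for Notch3 80.1%, for Dtx3 73.2%, for Rbpj 52.9% and for Notch1 27.6%. The set was longer than genes at large, with a median body of 37.0 kb against 17.2 kb, and the part of gene length in these values was not tested.

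**Figure D3:**
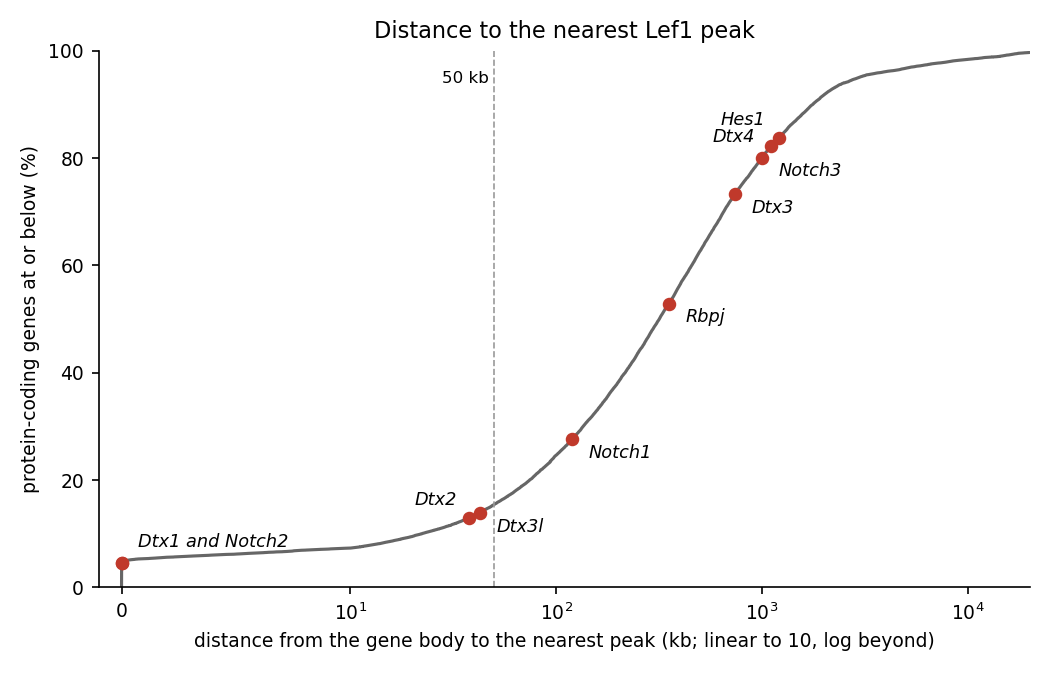
Cumulative percentage of protein-coding genes (vertical axis) by the distance in kb from the gene body to the nearest Lef1 peak (horizontal axis, linear up to 10 kb and logarithmic beyond), with the 10 genes as red points. Dtx1 and Notch2 lie at 0, Dtx2 and Dtx3l just under the 50 kb line, and Hes1, Dtx4 and Notch3 beyond 80% of genes.

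The promoter sequences were searched for letters that TCF/LEF proteins bind (CTTTG followed by AA, AT, TA or TT, on either strand). The windows of the 7 genes with one, Dtx1, Dtx2, Dtx3l, Notch1, Notch2, Notch3 and Rbpj, held none, while 16.9% of all windows did. With the shorter CTTTGA or CTTTGT, a match was found in Dtx2. The letters bound by Rbpj (TGGGAA on either strand, which contain the GGAA bound by Ets proteins) were found in Dtx2 and Rbpj, and in 25.6% of all windows. In Notch2, the printed bases inside the peak held neither set of letters and were 76.1% G or C. All 250 printed bases of Notch2 were 72% G or C, against a median of 52.4% for the 250 bases before a start site. In Bcl11b, the printed bases hold the TCF/LEF letters, but in the lower-case part between the peak and the start site and not inside the peak. A match describes the letters and is not a bound site.

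The other genes of the pathway were taken from a list of 68, sorted by role. It was drawn up with earlier results of these data known and is no independent evidence. Of these, 17 (25%) had a peak inside or within 50 kb, beside the 15.5% of all genes, and 51 had none. A gene of the list was the nearest to a peak in 8 cases (11.8%, beside 6.67%), and a peak touched the body of 6 (8.82%, beside 4.51%). Their median length of 27.4 kb was also above that of all genes. The 25 peaks had a median score of 4.34, against 4.40 for all peaks. Above 4.40 lay 9 of them, beside 628 of all 2052 peaks. No peak of the list came near that of Dtx1.

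Among 7 ligand genes, Jag2 (4.11, at 46.5 kb) and Dlk2 (4.17, at 24.8 kb) had a peak, each with another gene nearer. Dll1, Dll3, Dll4, Jag1 and Dlk1 had none, nor did the receptor gene Notch4. Of the genes for moving ligands to the surface, Mib1, Mib2, Neurl1a and Neurl1b, none had a peak.

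Among the 15 genes that process receptors and ligands, 6 had a peak. Pofut1, which adds the fucose that Notch receptors need, had 2 inside the gene. That of score 4.40 lay 32 to 110 bp after the start site (chr2:153241564-153241642), and the other scored 4.20. Adam10, the protease that makes the first cut after ligand binding, had a peak of 4.25 inside the gene and another of 6.70, 21.4 kb from it, whose nearest gene was Mindy2. Psenen, a subunit of the γ-secretase that makes the second cut, had the highest score of the list, 9.22, with 301 bp at a distance of 9.26 kb (chr7:30552307-30552607). That peak lay in a dense stretch of 10 genes and touched Hspb6 and Proser3. The protease gene Adam17 had peaks of 6.91 and 4.25 at 43.8 and 44.3 kb, beside Ywhaq. Rfng had a peak of 4.25 at 40.3 kb, whose nearest gene was Fasn. Furin had one of 4.09 at 48.0 kb, whose nearest gene was Unc45a. Lfng, Mfng, Poglut1, Ncstn, Aph1a, Aph1b and Aph1c were among those with none.

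Of 10 genes for turnover and inhibition, Fbxw7 and Nedd4 had a peak. Fbxw7 encodes the ubiquitin ligase subunit that marks the active intracellular Notch for destruction. Its peak of 5.99 and 113 bp lay 657 bp outside the gene (chr3:84814221-84814333), with no other protein-coding gene within 50 kb. Nedd4, another ubiquitin ligase gene, had peaks of 4.40 at 2.83 kb and of 7.29 at 25.6 kb, the latter nearest to Rfx7 and only 55 bp wide. Numb, Numbl, Itch, Nrarp, Cbl, Ndfip1, Arrb1 and Aak1 had none.

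In the nucleus, Maml2 of the Mastermind coactivators had 2 peaks inside its 413.0 kb, of 4.25 and 4.40, and the other 6 genes of that group, Maml1, Maml3, Snw1, Ep300, Kat2b and Rbpjl, had none. Of 10 genes listed as corepressors, Hdac1 (4.67, at 32.7 kb) and Kyat1 (4.20, at 11.4 kb) had a peak, with other genes nearer. Kyat1 encodes a kynurenine aminotransferase and no corepressor, and without it 16 of 67 genes of the whole list had a peak. The Hdac1 peak lay 1.37 kb from Fam167b, its nearest gene, and 1.74 kb from Lck, which encodes a T cell kinase. Spen, Cir1, Kdm5a, Hdac2, Ctbp1 and L3mbtl3 were among those with none.

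Among 14 target genes, Tcf7, Bcl11b, Ccnd3 and Ccnd1 had a peak. Tcf7, itself of the TCF/LEF family, had 4, of 4.08, 4.40, 5.53 and 6.68, and the last was 637 bp wide and ranked 2 by width. The Bcl11b peak of 4.23 covered -233 to -134 bp relative to the start site, as printed above. It still lay inside the annotated gene body, 0.498 kb from the high-coordinate end. The cyclin gene Ccnd3 had a peak of 4.06 inside it, and Ccnd1 one of 4.34 at 21.9 kb, whose nearest gene was LTO1. Hes5, Hes6, Hes7, Hey1, Hey2, Heyl, Myc, Ptcra, Gata3 and Il2ra had none.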

How the data were processed

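ChIP-seq peaks of the wild-type library were called against the Lef1-deficient library, per the labels. Per the submitters' processing notes, the tools included MACS2 2.1.1, Bowtie2 2.3.4.1 and FastQC and the build was mm10. Their parameters and any later filter: not given in the sources used here. The numbers in the peak names ran from 26 to 33876 for 2052 listed peaks, so a longer list was probably cut. A gene without a listed peak may have had one before that cut. The deposited value is the −log10 of the p-value of each peak, per the file headers. The authors called peaks on 1 library against 1 control, so no score has a replicate error. The list was read as BED, so 1 was added to each start for 1-based positions.

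Peaks were matched to 21887 protein-coding RefSeq genes of GRCm38.p6 (the same assembly as mm10) with Python 3.11.15 and pandas 2.3.3. A peak counted for a gene where any base lay inside or within 50 kb of the body, so 1 peak can count for several genes. The matching was tested on simulated data. Strands, start sites and sequences came from RefSeq promoter windows. Named were all 10 genes, every listed pathway gene with a peak, most of those without (some are not reported here), genes nearer to a peak of the 10, and the 3 genes ranked on either side of the leading one. The 10 genes and all lists were chosen with earlier results of these data known. Alternatives were windows of 0, 10, 25 and 100 kb, peak centres, higher scores, the nearest gene and merged peaks. Motifs inside peaks were not searched genome-wide, as no genome was used here.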

Additional observations from a re-analysis of the deposited data

How the results depend on the processing

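Of the 10 genes, 4 had a peak within 50 or 100 kb or by peak centres. With windows of 0, 10 or 25 kb, or the nearest gene alone, 2 remained (Dtx1 and Notch2), and with peaks above the median score or of at least 8 also 2 (Dtx1 and Dtx3l). Dtx1 kept a peak under each of these 8 alternatives. The number of peaks, 5, fell to 3 within 10 or 25 kb and with the nearest gene, to 2 with gene bodies alone and to 2 with either higher score, and stayed at 5 when peaks within 1 kb were merged. In the wider list, 17 genes became 24 within 100 kb, 12 within 25 kb, 9 within 10 kb, 6 by gene bodies, 8 by the nearest gene, 7 above the median score and 1 (Psenen) at a score of at least 8, and stayed 17 by peak centres. The share of all genes, 15.5%, was 4.51% by gene bodies, 7.33% within 10 kb, 10.5% within 25 kb, 24.6% within 100 kb, 6.67% by the nearest gene, 5.84% above the median score and 0.932% at a score of at least 8. These changes follow from the width of the window, the score cut or the assignment of a peak to its nearest gene alone. The main Dtx1 peak ranked 6 by score, 3 among autosomal peaks and 19 by width. The promoter motif searches and their alternatives were chosen after the data were seen: with 6 letters 1 gene had the TCF/LEF motif against 0, and with GTGGGAA 0 genes had the Rbpj motif against 2. The planned motif searches inside all peaks were not run. No paired analysis was possible because there is a single library of either genotype, and for the same reason no replicate could be left out. Read depth is unknown.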

Other observations

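Over all genes, 312 promoter windows of 280 genes were overlapped by a Lef1 peak. Of these windows 26.9% (84) held the TCF/LEF letters, against 16.9% of all windows, and 16.0% (50) the Rbpj letters, against 25.6%. With the shorter CTTTGA or CTTTGT the shares were 34.0% and 31.2%, so most of the first difference was not seen with that motif. With GTGGGAA they were 3.53% and 6.38%. Windows of a gene can overlap, and the difference was not tested.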
